A study of Bos taurus with 3 samples.

Results

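The 7 mature miRNAs described here are those known as muscle miRNAs, or myomiRs: miR-499, miR-1, miR-133a, miR-133b, miR-206, miR-208a and miR-208b. They were chosen by name from a deposited table of 793 mature miRNAs of cattle, with every precursor row of each, which gave 9 of the 919 rows. Each row is a mature miRNA on a precursor hairpin, so miR-1 and miR-133a have a row for each of their hairpins. The RNA came from large dense-core vesicles, the organelles in which chromaffin cells store catecholamines and peptides, purified from bovine adrenal medulla. There was 1 library labelled a biological replicate and 2 labelled technical replicates. The labels give no treatment, strain, age or number of animals, nor the step that was repeated for the technical pair, and the cattle came from local slaughter. The 2 technical libraries were therefore taken as 1 preparation by their average, and means and standard deviations (SD) are over n = 2 preparations.

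Muscle miRNAs are known in mammals mainly from skeletal and heart muscle. miR-1 and miR-133a are cut from shared primary transcripts, and miR-206 and miR-133b from another, which is known from skeletal muscle. miR-1 and miR-206 share their seed, the part of a miRNA that pairs with its targets, and miR-133a and miR-133b are nearly identical in sequence. miR-208a, miR-208b and miR-499 lie in introns of the myosin heavy chain genes MYH6, MYH7 and MYH7B and are known together as regulators of slow and fast muscle fibre programmes. The adrenal medulla is not a striated muscle tissue.

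In RefSeq's cattle annotation (assembly ARS-UCD2.0, which is not the UMD3.1 build of the processing notes and is used here for names and neighbours only) all 9 hairpins were found by name. MIR499 overlapped MYH7B, MIR208A overlapped MYH6 and MIR208B overlapped MYH7. MIR1-1 lay next to MIR133A-1. MIR1-2 lay next to MIR133A-2, both overlapping MIB1. MIR206 lay next to MIR133B, both overlapping the long non-coding RNA gene LOC132343629.

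The vesicle RNA held a small amount of muscle miRNA, most of it miR-499, followed by miR-1. The libraries held 6708654 counts in the biological replicate and 5546771 and 6251664 counts in technical replicates 1 and 2, after each mature miRNA was counted once by its row with the most counts. Of these, 5925 counts in the biological replicate and 3750 and 4093 counts in technical replicates 1 and 2 belonged to the muscle miRNAs. They took 0.0883% of the counts in the biological replicate (exact 95% interval 0.0861 to 0.0906%), against 0.0676% (0.0655 to 0.0698%) and 0.0655% (0.0635 to 0.0675%) in technical replicates 1 and 2. The mean was 0.0774% ± 0.0154 (SD, n = 2). The share in the biological replicate lay above both technical libraries by more than these intervals, which cover counting error only, since the labels name no molecular identifiers. A smaller number of cells that hold a miRNA and less of it per cell cannot be told apart in such bulk RNA, and no library of whole chromaffin cells was analysed here, so none of the levels shows enrichment in the vesicles.

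miR-499 (MIMAT0003536), encoded in a myosin gene, was the most abundant member in every library. It had 4907 counts in the biological replicate and 3035 and 3258 counts in technical replicates 1 and 2. As CPM, the counts scaled to a common library total, this was 731 CPM in the biological replicate (exact 95% interval 711 to 752), against 547 CPM (528 to 567) and 521 CPM (503 to 539) in the technical pair. The biological library lay above both technical libraries, whose intervals overlapped. Its mean of 633 ± 140 CPM (SD, n = 2) placed miR-499 at rank 87 of the 793 mature miRNAs, between miR-32 at a mean of 662 CPM and miR-374a at 623 CPM. In the single libraries it ranked 77 in the biological replicate and 91 and 92 in technical replicates 1 and 2. It made up 82.8% of the muscle miRNA counts in the biological replicate and 80.9% and 79.6% in the technical replicates.

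miR-1 (MIMAT0009214), the most abundant miRNA of heart and skeletal muscle, came next. It had 945 counts in the biological replicate and 655 and 765 counts in technical replicates 1 and 2. These were 141 CPM in the biological replicate (132 to 150), against 118 CPM (109 to 127) and 122 CPM (114 to 131) in the technical pair. The biological library was again the highest, with an interval that lay wholly above those of technical replicates 1 and 2. Its mean was 131 ± 14.6 CPM (SD, n = 2), rank 152, with miR-758 next above and miR-450a next below. The hairpins mir-1-1 and mir-1-2 carried 944 and 945 counts in the biological replicate, 655 and 655 in technical replicate 1, and 764 and 765 in technical replicate 2. The rows of the hairpins of miR-133a were identical in all libraries. Which of the loci produced the reads cannot be told from such rows.

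miR-133a (MIMAT0009225), the partner of miR-1 on the shared transcripts, had 61 counts in the biological replicate and 56 and 57 counts in technical replicates 1 and 2. This was 9.09 CPM in the biological replicate, compared with 10.1 and 9.12 CPM in the technical replicates, a mean of 9.35 ± 0.363 CPM (SD, n = 2) at rank 274. The libraries did not separate, since their intervals (6.96 to 11.7 CPM in the biological replicate, 7.63 to 13.1 and 6.91 to 11.8 CPM in the technical pair) overlapped. A further table entry, miR-133c, had 0 counts in every library, and RefSeq's MIR133C overlapped MIR133A-1.

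The skeletal muscle pair was at the limit of detection. miR-133b (MIMAT0009226) had 6 counts in the biological replicate and 4 and 11 counts in technical replicates 1 and 2, a mean of 1.07 ± 0.245 CPM (SD, n = 2). miR-206 (MIMAT0009260) had 6 counts in the biological replicate and 0 and 2 counts in the technical replicates. The counts of miR-206 in the biological replicate over the summed technical pair gave a ratio of 5.28 after scaling to library totals, with an exact 95% interval from 0.943 to 53.5 that spans no difference. The limit set for a count of 0, 3 counts, stood at 0.447 CPM in the biological replicate and 0.541 and 0.480 CPM in technical replicates 1 and 2.

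The myosin-encoded miR-208a (MIMAT0009261) and miR-208b (MIMAT0009262) had 0 counts in all 3 libraries, whereas miR-499, which lies in the related gene MYH7B, had at least 3035. In the table as a whole 267 of 793 mature miRNAs (33.7%) had 0 counts in every library. The exact intervals of miR-208a and miR-208b reached up to 0.550 CPM in the biological replicate, against the 731 CPM of miR-499 in that library.

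**Figure D1:**
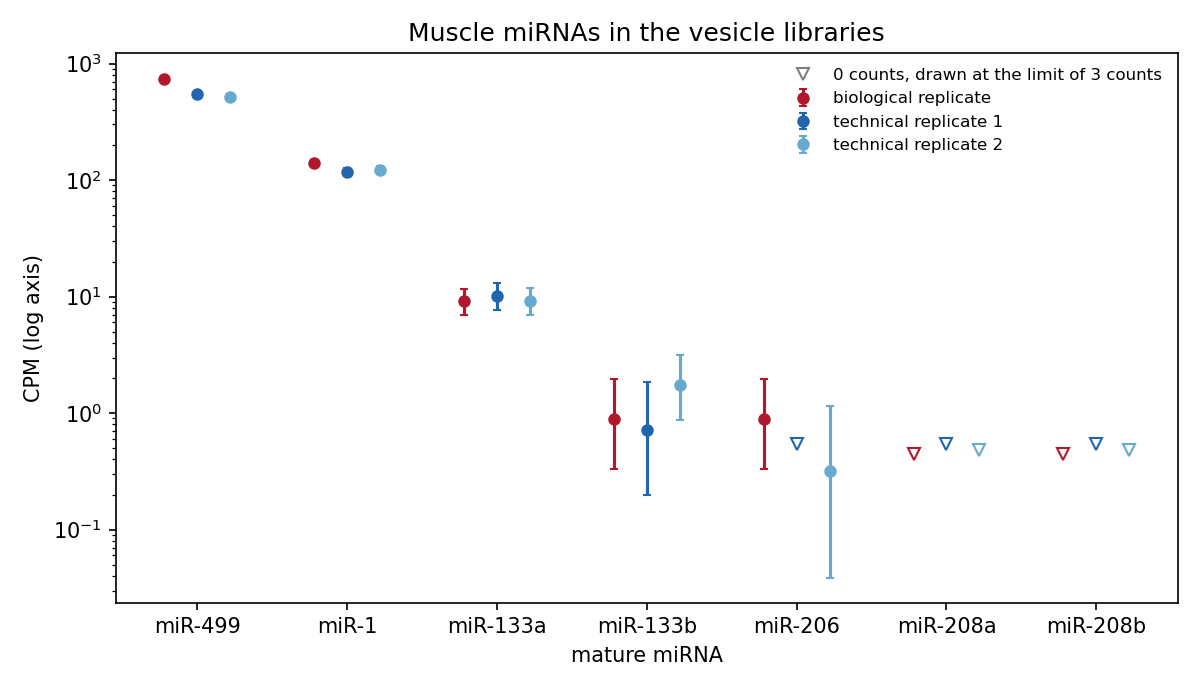
CPM of each muscle miRNA in the biological replicate and technical replicates 1 and 2, on a log axis; points are libraries, bars are exact 95% intervals of counting error, and open triangles mark 0 counts at the limit of 3 counts. The levels fall from miR-499 at 521 to 731 CPM through miR-1 and miR-133a to miR-133b and miR-206 near the limit, with miR-208a and miR-208b at 0.

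The order of miR-499, miR-1, miR-133a and miR-133b was the same in each library, and the intervals of neighbours in that order did not overlap within a library. miR-133b and miR-206 had equal counts in the biological replicate and overlapping intervals in technical replicate 2, and their order is not resolved at this depth. miR-206 was likewise not separated from the 0 counts of miR-208a and miR-208b, since the intervals overlapped in every library.

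The ratio of miR-1 to miR-133a, which come from common transcripts, had intervals that overlapped between the libraries. With only 56 to 61 counts of miR-133a in a library these intervals are wide, and their overlap does not show that the ratio was constant. miR-1 had 15.5 times the counts of miR-133a in the biological replicate (exact 95% interval 12.0 to 20.4), against 11.7 times (8.89 to 15.7) and 13.4 times (10.2 to 17.9) in technical replicates 1 and 2. The mean ratio was 14.0 ± 2.07 (SD, n = 2). The counts of miR-499 were 5.19 times those of miR-1 in the biological replicate (4.84 to 5.57), against 4.63 times (4.26 to 5.05) and 4.26 times (3.94 to 4.61) in technical replicates 1 and 2. The interval of this ratio in the biological replicate lay above that of technical replicate 2 and overlapped that of technical replicate 1. Ratios between miRNAs also carry differences in how well each is ligated and amplified, which was not tested, so they are described only for change between libraries.

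**Figure D2:**
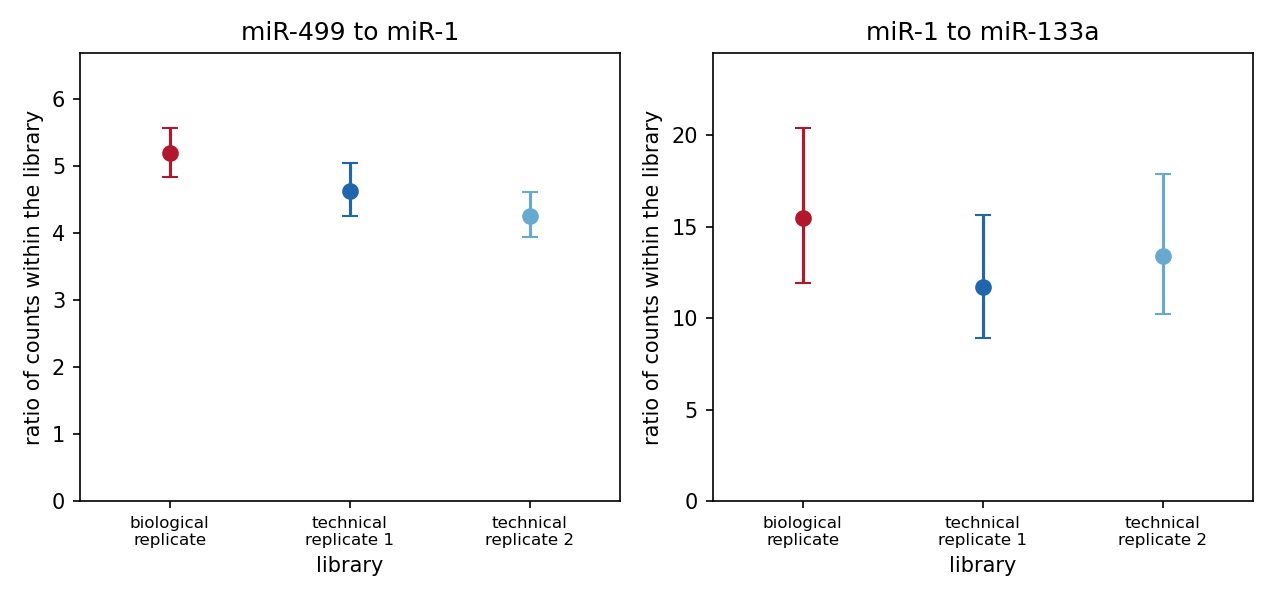
Ratio of counts within each library for miR-499 to miR-1 (left) and miR-1 to miR-133a (right), with the biological replicate left of technical replicates 1 and 2; bars are exact 95% intervals of counting error. The ratio of miR-1 to miR-133a lies between 11.7 and 15.5 with overlapping intervals, and that of miR-499 to miR-1 between 4.26 and 5.19.

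The technical pair differed little in the members with enough counts. The log2 ratio of technical replicate 2 to technical replicate 1 was -0.07 for miR-499, 0.05 for miR-1 and -0.15 for miR-133a. The exact 95% intervals of these ratios on the linear scale (0.906 to 1.00 for miR-499, 0.932 to 1.15 for miR-1 and 0.613 to 1.33 for miR-133a) held 1. Over 366 miRNAs that reached 10 counts in some library and had a count in each, the median size of this log2 ratio was 0.12. miR-133b stood at 1.29, from 11 counts against 4, with an interval of 0.723 to 10.5.

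Set against the spread of the technical pair, miR-499 and miR-1 were higher in the library of the biological replicate, and miR-133a and miR-133b did not pass the test. With 1 library of that preparation, the spread between preparations was not measured, so the test shows a difference between these libraries that exceeds technical spread and not one between preparations in general. It was edgeR's quasi-likelihood test on the counts of the 367 miRNAs that reached 10 counts in some library, and p-values were adjusted over all of them by the Benjamini-Hochberg method. miR-499 rose by a log2 fold change of 0.63 ± 0.10 (SE), which is 1.55-fold, with an adjusted p of 1.8e-09 in edgeR's test. miR-1 rose by 0.41 ± 0.12 (SE), or 1.33-fold, with an adjusted p of 0.0030 in edgeR's test. The biological library was above each technical library for both. miR-133a had a log2 fold change of 0.11 ± 0.26 (SE) and an adjusted p of 0.81 in edgeR's test. miR-133b, which entered the test only through its 11 counts in technical replicate 2, had -0.32 ± 0.50 (SE) and an adjusted p of 0.78. miR-206, miR-208a and miR-208b had too few counts to be tested.

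Thus 2 of the 4 members tested were called, both higher, where 37.9% of all 367 miRNAs were called (17.7% higher and 20.2% lower). With 4 members tested, a count of 2 is near that background and shows nothing particular to the muscle miRNAs. Among the 65 miRNAs called higher, miR-499 had the 18th and miR-1 the 41st largest fold change. The median log2 fold change of the 4 members was 0.26, against 0.01 over all miRNAs tested. It was 0.41 over the 3 members left when miR-133b was dropped by asking for 10 counts in every library, against 0.02 over all. The test has 1 residual degree of freedom, all of it from the 2 technical libraries. TMM scaling, which sets libraries level on the bulk of their miRNAs, shifted fold changes towards the biological replicate by 0.18 log2 units relative to library totals. With library totals the median of the 4 members moved to 0.08 and that of all miRNAs to -0.17, and the calls moved to 24 higher and 86 lower, against 65 higher and 74 lower with TMM. miR-499 then stood at 0.45 on the log2 scale and passed (edgeR, adjusted p = 0.020), while miR-1 had 0.23 and did not pass (edgeR, adjusted p = 0.16). DESeq2 gave miR-1 a log2 fold change of 0.40 with an adjusted p of 0.083, short of the threshold. With the fit restricted to a mean of 100 CPM or more, edgeR gave 0.26 with an adjusted p of 0.12, also short of it. By summed counts over library totals, with no scaling factor, miR-499 was 1.37-fold higher in the biological replicate than in the technical pair (exact 95% interval 1.32 to 1.42). On this measure miR-1 was 1.17-fold higher (1.08 to 1.27) and miR-133a stood at 0.949 (0.684 to 1.31). These intervals pool the technical pair and cover counting error only. They leave out the spread between the technical libraries, which edgeR's test includes through an estimate pooled over all miRNAs tested. Neither covers the spread between preparations.

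**Figure D3:**
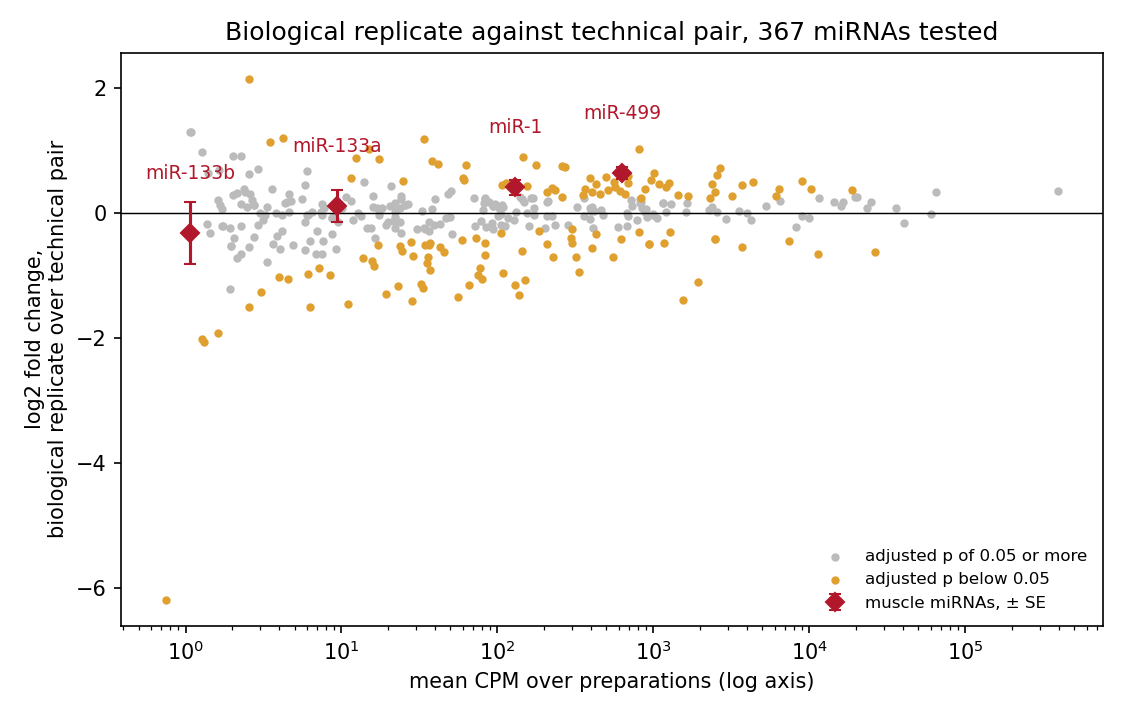
Log2 fold change of the biological replicate over the technical pair (edgeR, TMM) against mean CPM on a log axis for 367 miRNAs; red diamonds are the muscle miRNAs with their SE. miR-499 (0.63) and miR-1 (0.41) lie above 0 among many other miRNAs called in both directions, and miR-133a and miR-133b lie within 1 SE of 0.

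**Figure D4:**
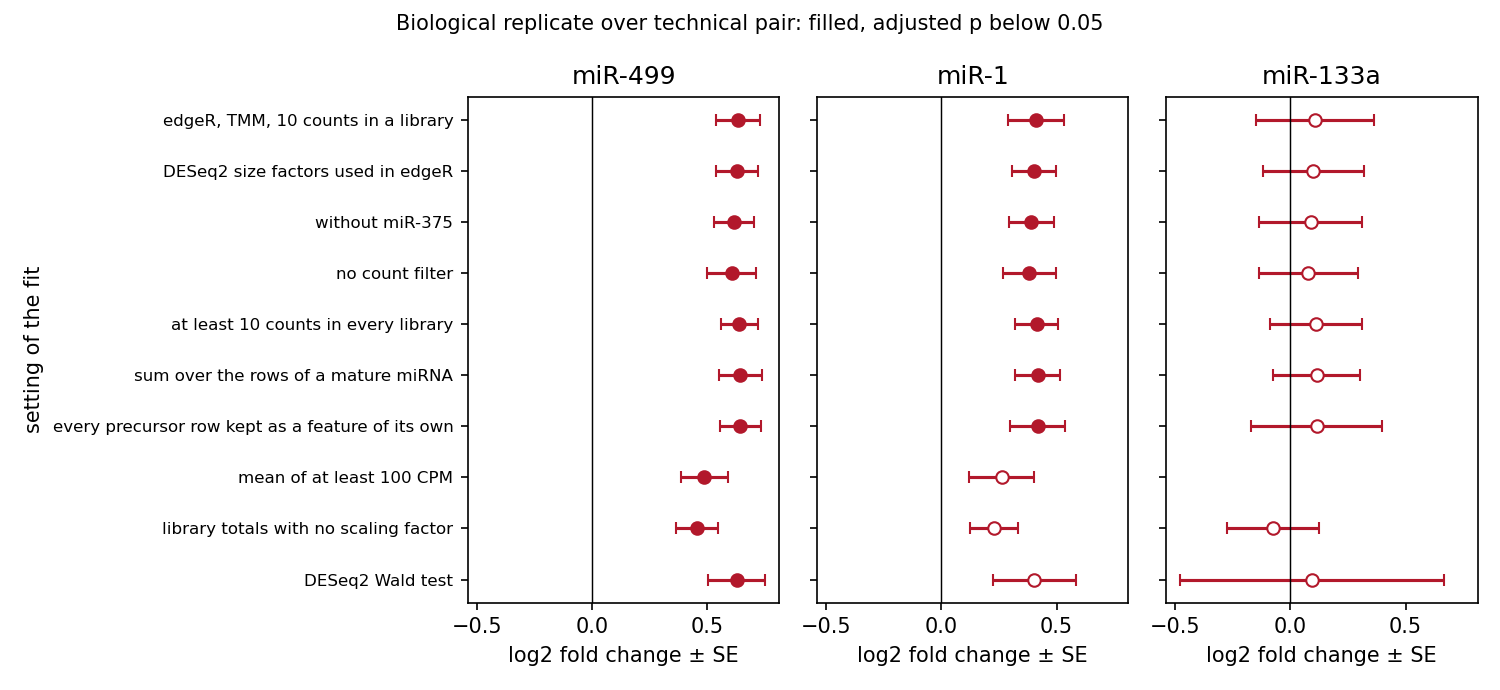
Log2 fold change ± SE of miR-499, miR-1 and miR-133a, biological replicate over technical pair, under 10 settings of the fit listed from top to bottom; filled points have an adjusted p below 0.05 and miR-133a has no value in the fit restricted to 100 CPM or more. miR-499 passed in all 10, miR-1 did not pass in the lowest 3, and miR-133a passed in none.

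Some markers of other cell types also differed between the biological library and the technical pair. Their part in the values of the muscle miRNAs was not tested. miR-143 and miR-145, the smooth muscle list, summed to 8207 CPM in the biological replicate, compared with 13715 and 15658 CPM in technical replicates 1 and 2. Nearly all of it was miR-143. miR-145 had 1.64 CPM in the biological replicate and 2.52 and 1.92 CPM in technical replicates 1 and 2. miR-143 fell by 0.66 on the log2 scale, and miR-145 (-0.24) did not pass. The other vessel wall and connective tissue lists moved the same way: 3 of 3 mature members of miR-199a and miR-214 and 2 of 2 of miR-126, the endothelial miRNA, were lower, where 20.2% of all miRNAs tested were called lower. The arms of miR-199a and of miR-126 each come from a common hairpin and are not independent. Whether miR-214 varies independently of miR-199a was not tested. miR-199a-3p had the same CPM as miR-199c in every library, so its counts are not particular to miR-199a. These lists summed to 2031 CPM (miR-199a and miR-214) and 1130 CPM (miR-126) in the biological replicate. In technical replicates 1 and 2 they summed to 3086 and 3177 CPM (miR-199a and miR-214) and to 1820 and 1888 CPM (miR-126). miR-499 and miR-1 were thus higher in the library in which these lists were lower.

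Of the blood lists, the 3 red blood cell miRNAs summed to 1097 CPM in the biological replicate and 898 and 837 CPM in technical replicates 1 and 2, nearly all of it miR-486. miR-486, which is enriched in both red blood cells and muscle, rose by 0.53 ± 0.09 (SE; edgeR, adjusted p = 2.9e-07). miR-451, the defining miRNA of red blood cells, had 16.8 CPM in the biological replicate and 23.6 and 20.2 CPM in the technical replicates, a log2 fold change of -0.19 that did not pass. The leukocyte list (miR-142, miR-150 and miR-223) summed to 29.8 CPM in the biological replicate and 52.1 and 49.3 CPM in technical replicates 1 and 2, with 1 of 3 tested mature members lower, a count near the 20.2% over all miRNAs. The endocrine miRNAs (miR-375, miR-7) made up 47.3% of all counts in the biological replicate and 44.1% and 42.8% in the technical replicates, and neither passed. Most of this was miR-375, at 416586 CPM in the biological replicate and 381396 and 358079 CPM in technical replicates 1 and 2. miR-7 was lowest in the biological replicate, at 56414 CPM, against 59224 and 70296 CPM in technical replicates 1 and 2. No member of these lists was at 0 in every library. Of the 7 striated muscle miRNAs 2 were, a count near the 33.7% over all 793 mature miRNAs.

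miRNAs that act in muscle cells but are made in many tissues held far more of the counts as a group than the muscle miRNAs did, and those that passed the test went in both directions. This list held 12 names and 13 mature miRNAs, which summed to 6.30% of the counts in the biological replicate and 6.62% and 6.83% in technical replicates 1 and 2. All 13 were tested, with 3 higher, 3 lower and 7 not passing (edgeR, adjusted p below 0.05), against the 37.9% called over all miRNAs. Their median log2 fold change was -0.08. miR-27b, known to target Pax3 in muscle precursors of the mouse, had 24662 CPM in the biological replicate and 24644 and 24998 CPM in the technical replicates and did not pass. miR-26a did not pass either, with 22637 CPM in the biological replicate, and 23077 and 25820 CPM in the technical replicates. miR-29a had 7015 CPM in the biological replicate, compared with 9570 and 9054 CPM in the technical replicates, and at -0.23 on the log2 scale it did not pass. miR-24-3p rose by 0.27 ± 0.10 (SE; edgeR, adjusted p = 0.024) to 6333 CPM in the biological replicate, compared with 6130 and 5753 CPM in the technical pair. The other miRNAs called were miR-24 and miR-486, which were higher, and miR-29b, miR-29c and miR-214, which were lower. miR-214 and miR-486 also stand in the lists above.

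Profiles most like those of the members were sought among the 270 other miRNAs whose mean reached 10 CPM, as the root mean square difference of centred log2(CPM + 1) over the 3 libraries. For miR-499 these were miR-95, miR-330 and miR-24, with differences of 0.0071, 0.038 and 0.039 log2 units. miR-95 had 1175 CPM in the biological replicate, compared with 870 and 837 CPM in technical replicates 1 and 2. For miR-1 they were miR-224, let-7f and miR-193a-5p, at 0.014, 0.014 and 0.020. For miR-133a they were miR-125b, miR-6123 and miR-628, at 0.022, 0.022 and 0.024. For miR-133b, which rests on few counts, the closest were miR-2284h-5p, miR-6119-3p and miR-296-3p, at 0.084 to 0.14. The search left the other muscle miRNAs out, and profiles over 3 libraries from 2 preparations are easily alike.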

How the data were processed

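Small RNA was sequenced from purified vesicles with the NEBNext small RNA set, per the labels' protocols. The deposited table holds raw read counts (whole numbers) per mature miRNA and hairpin. The submitters' processing notes name UMD3.1 and edgeR, while the read aligner, counting software and miRBase version are not stated in those notes. CPM by the authors stand beside the counts, and a second table gives log2 CPM by the authors for 459 rows, 5 of them of the muscle miRNAs. For a mature miRNA with several rows the one with most counts was used, and CPM were recomputed from totals over the 793 mature miRNAs. Where rows hold different reads this counts too few. Of 50 miRNAs with several hairpins and at least 100 counts, the rows of 33 agreed within 5%. Near-identical miRNAs such as miR-133a and miR-133b may share reads.

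The biological library was set against the technical pair in edgeR 4.0.16 under R 4.3.3 (TMM, glmQLFit and glmQLFTest, Benjamini-Hochberg at 0.05) for miRNAs that reached 10 counts in some library. A self-test on counts simulated with a common dispersion recorded calls, recovery of changed miRNAs and false calls. It looked at direction among the changed miRNAs that were called. It is a check of the code and says nothing about the error rate in these data. SE were derived from the fold change and F. The size of an adjusted p depends on edgeR's prior degrees of freedom, here estimated as infinite, so it is read only against the threshold. Intervals are exact Clopper-Pearson (scipy 1.17.1). Alternatives were other scalings, count filters, treatment of rows, DESeq2 1.42.0, the deposited log2 values and libraries left out. Named were all members, the 3 nearest profiles and the 2 neighbours in level of the 4 most abundant members, and fixed marker lists. The members, lists and tests were chosen with earlier results of these data known.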

Additional observations from a re-analysis of the deposited data

How the results depend on the processing

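miR-499 passed in each fit with a test, with log2 fold changes from 0.45 to 0.64. It stood at 0.49 in the authors' log2 table and at 0.60 to 0.67 with a technical library left out, both without a test because no residual degree of freedom is left or no counts are given. miR-1 fell short of the threshold in DESeq2 (0.40), with library totals (0.23) and with the 100 CPM filter (0.26), and stood at 0.26 in the log2 table and at 0.38 to 0.44 with a technical library left out. The sign of miR-133a, which passed in no fit, turned with library totals (-0.075) and in the log2 table (-0.045), and lay between 0.03 and 0.18 with a technical library left out. miR-133b lay between -0.80 without technical replicate 1 and 0.49 without technical replicate 2, and DESeq2 gave it no adjusted p. With library totals, DESeq2 and the 100 CPM filter, 1 member was called in place of 2. Over all miRNAs, 84 were called in DESeq2 and 70 with the 100 CPM filter, in place of 139, and that filter left 167 miRNAs to test. The share of the muscle miRNAs was 0.129% without miR-375 in the denominator, because that miRNA holds a large part of all counts, and 0.0665 to 0.0780% with a library left out. The ratio of miR-1 to miR-133a ranged over 12.6 to 14.5 when any library was dropped. The fit without miR-375 was chosen after seeing the data and changed no call of a member. No paired analysis was possible because the labels pair no technical library with the biological one. The cause of these differences was not tested unless given. Depth limits miR-133b, miR-206, miR-208a and miR-208b, where a few counts decide each value.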
